A study of Mus musculus with 2 samples.

Results

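The genes examined were 8 of the 27998 features counted in both libraries: Pdcd1, Lag3, Havcr2, Tigit, Ctla4, Cd160, Entpd1 and Tox. They were selected by gene symbol, and all 8 symbols were found. Pdcd1, Lag3, Havcr2, Tigit, Ctla4 and Cd160 encode inhibitory receptors of T and NK cells, Entpd1 encodes an ectoenzyme, and Tox encodes a DNA-binding regulator. The libraries were made from live CD45+ cells sorted from subcutaneous B16F10 melanomas, a mouse tumor line, that had grown for 14 days in C57BL/6 hosts. One library came from Usp18f/f mice (control). The other came from Usp18f/f LysM-Cre mice, in which Cre is driven by the Lyz2 (lysozyme M) locus of macrophages, other monocyte-derived cells and neutrophils. All hosts carried the floxed Usp18 allele, and the Cre is made for myeloid cells, not for T or NK cells. In each library 4 tumors were pooled, so there was 1 library per group, no test between groups was possible, and all intervals cover counting error only.

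Inhibitory receptors bind ligands on tumor or antigen-presenting cells and dampen signalling from the T cell receptor. They appear on T cells shortly after activation, and several of them stay on together when antigen persists, as it does in tumors, a state called exhaustion. Tox is a nuclear protein of the HMG-box family that is required for the exhausted state of CD8 T cells and is also used in thymic and innate lymphoid development. Regulatory T cells, marked by the transcription factor Foxp3, carry Ctla4 constitutively.

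The control library held 7754 barcodes and 43412346 UMIs (unique molecular identifiers, each standing for 1 captured RNA molecule), with a median of 2600 per barcode. The labelled knockout library held 6063 barcodes and 48167632 UMIs, with a median of 4455. After filtering, 6652 and 5447 cells were kept. Usp18, a protease that removes the ubiquitin-like protein ISG15 and restrains interferon signalling, did not follow the label. Its level in mononuclear phagocytes was 17.7 CPM (counts of UMIs scaled to the gate's total) in control cells, against 72.3 CPM in those of the other library. It was also higher in CD8 T cells, at 10.0 and 47.7 CPM. Lyz2 went with the label, at 9068 and 17.8 CPM in mononuclear phagocytes. The second library is therefore called the library labelled knockout throughout. The libraries also differed in the sex of their cells: among kept cells with UMIs of either Xist alone or of Y-linked genes alone, 36.5% were Xist cells in the control library and 86.1% were in the other. The labels give no sex of the mice. The libraries had 8 cell barcodes in common, of which 1 lay in the T and NK gates.

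T cells were gated by at least 2 UMIs of Cd3d, Cd3e and Cd3g and divided by Cd8a or Cd8b1, Cd4 and Foxp3, and NK cells by Ncr1 without Cd3 genes. The gates held 555 and 396 CD8 T cells (control library first here and below), 224 and 106 CD4 T cells, 109 and 108 Foxp3 T cells, and 170 and 137 NK cells. Median depth was lower in the control library in each of the 4 gates, at 2841 against 3459 UMIs in CD8 T, 2200 against 2699 in CD4 T, 3025 against 3767 in Foxp3 T and 2378 against 3018 in NK cells. As a check with genes not used for gating, at least 1 of 6 further T cell genes (Lck, Thy1, Cd2, Cd28, Lat, Skap1) had a UMI in 97.2% of the cells or more in each T gate. At least 1 of 6 NK genes (Klrk1, Txk, Eomes, Klrb1c, Prf1, Gzma) had one in 97.6% and 99.3% of NK cells. These lists do not separate the gates by detection alone, since the T cell genes had UMIs in 91.8% and 90.5% of NK cells and the NK genes in 76.4% and 78.8% of CD8 T cells. In sum, the NK genes stood at 5426 and 5989 CPM in NK cells and 626 and 662 CPM in CD8 T cells, and the T cell genes at 1126 and 1117 CPM in NK cells and 2008 and 1889 CPM in CD8 T cells. RNA of other cells was present and differed between libraries. In Foxp3 T cells the 4 dendritic cell genes Flt3, Xcr1, Cd209a and Siglech summed to 24.3 CPM in the control library, with Xcr1 and Siglech at 0, and to 278 CPM in the other, of which Cd209a gave 234. UMIs of Flt3, Xcr1 or Cd209a were found in 3 of 109 and in 24 of 108 Foxp3 T cells, in 4 of 224 and 11 of 106 CD4 T cells, and in 8 of 555 and 18 of 396 CD8 T cells. Cd74, a gene of MHC class II presentation shared by B cells and dendritic cells, stood at 715 and 5762 CPM in Foxp3 T cells, and H2-Aa had UMIs in 9 of 109 and 34 of 108 of them. The neutrophil genes S100a8 and S100a9 stood at 26.3 CPM over 12 Foxp3 T cells of the control library and at 376 CPM in the other, all from 1 cell. The part of this RNA in the results below was not tested, except where values without such cells are given.

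For 6 of the 8 genes, RefSeq promoter sequences on GRCm38.p6 were at hand, covering 8 start sites. Lag3 and Tox had no entry. The 250 bases before the start are shown for the 3 receptors whose levels are followed most closely below besides Lag3, and for the downstream start of Cd160, which carried the most matches. Capitals mark matches to 4 short motifs searched on both strands: the NFAT core TGGAAA, the AP-1 motif TGANTCA, the NR4A motif AAAGGTCA and the TCF-1/LEF-1 motif TTCAAAG.
Pdcd1 (minus strand, chr1:94052554-94052803): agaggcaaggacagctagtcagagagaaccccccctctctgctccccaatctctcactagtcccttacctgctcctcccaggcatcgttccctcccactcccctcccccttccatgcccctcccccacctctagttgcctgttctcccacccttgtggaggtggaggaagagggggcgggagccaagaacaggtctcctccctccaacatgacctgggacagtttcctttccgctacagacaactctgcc
Havcr2 (plus strand, chr11:46454681-46454930): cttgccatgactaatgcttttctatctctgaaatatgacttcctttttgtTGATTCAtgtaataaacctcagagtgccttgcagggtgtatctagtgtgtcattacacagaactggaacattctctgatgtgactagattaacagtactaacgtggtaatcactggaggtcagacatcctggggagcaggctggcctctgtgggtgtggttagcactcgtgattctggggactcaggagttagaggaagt
Ctla4 (plus strand, chr1:60908775-60909024): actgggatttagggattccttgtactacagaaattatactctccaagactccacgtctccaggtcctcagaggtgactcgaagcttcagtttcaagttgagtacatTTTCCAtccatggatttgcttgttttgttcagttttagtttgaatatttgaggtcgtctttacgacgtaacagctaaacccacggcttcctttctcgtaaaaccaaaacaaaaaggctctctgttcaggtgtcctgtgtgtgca
Cd160 (minus strand, chr3:96814522-96814771): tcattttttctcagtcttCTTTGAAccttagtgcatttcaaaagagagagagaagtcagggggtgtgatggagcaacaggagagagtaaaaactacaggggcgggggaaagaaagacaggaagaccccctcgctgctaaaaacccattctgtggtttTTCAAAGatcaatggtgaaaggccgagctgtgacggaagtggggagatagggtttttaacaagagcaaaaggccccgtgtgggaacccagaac
Havcr2 held 1 AP-1 match, which begins 200 bases before the start, and 6.75% of 32851 promoters of the same length held one. Ctla4 held 1 NFAT core on the minus strand, a match found in 18.6% of promoters. The downstream Cd160 start held 2 TCF-1/LEF-1 matches, beginning 232 and 93 bases before it, and 4.46% of promoters held at least 1. No NR4A match was found in any of the 8 windows, against 1.34% of all promoters. Pdcd1, Tigit, both Entpd1 starts and the upstream Cd160 start held none of the 4 motifs in these 250 bases. A match is a description of the letters and was not compared with any binding data.

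The 8 genes differed in which gates held them. Pdcd1, which encodes PD-1, stood at 132 CPM in Foxp3 T cells and 115 CPM in CD8 T cells of the control library, with overlapping intervals, and at 44.2 CPM in CD4 T cells. It had 0 UMIs in 170 NK cells of the control library and 2 UMIs in 137 NK cells of the other, so it was not detectable there beyond 1 cell, and 0 UMIs in the 1334 and 419 B cells. Ctla4, a receptor that competes with CD28 for the ligands CD80 and CD86, was ordered Foxp3 T (838 and 744 CPM), CD4 T (159 and 213 CPM), CD8 T (61.6 and 73.3 CPM) and NK (14.7 and 10.7 CPM) in both libraries, and neighbours in that order did not overlap from Foxp3 T to NK. Ctla4 UMIs were found in 87.2% and 86.1% of Foxp3 T cells, against 0.15% and 0.477% of B cells, which give the background.

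Lag3, whose product binds MHC class II, was highest outside the T cells. Plasmacytoid dendritic cells, gated by Siglech and Ccr9, carried 235 and 302 CPM, with UMIs in 57.6% and 62.2% of 139 and 74 cells. The T cell genes of the check list were low in that gate, at 39.1 and 34.2 CPM in sum. CD8 T cells followed with 91.7 and 138 CPM. Havcr2, which encodes TIM-3, a receptor of both T cells and myeloid cells, was at 40.4 and 47.0 CPM in mononuclear phagocytes and 64.7 and 61.0 CPM in cDC1, dendritic cells gated by Xcr1 and Clec9a. These values stood beside 71.6 and 85.8 CPM in CD8 T cells and 52.7 and 53.9 CPM in Foxp3 T cells. Entpd1 encodes CD39, an ectoenzyme that removes phosphates from extracellular ATP. Its highest level was in mononuclear phagocytes, at 61.0 and 60.6 CPM, followed by Foxp3 T cells at 46.6 and 52.4 CPM, and the intervals of these neighbours overlapped in both libraries.

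Cd160, which encodes a receptor of the cytotoxic lineages, was at 101 and 104 CPM in NK cells and 65.1 and 64.2 CPM in CD8 T cells. It had 2 UMIs in CD4 T cells of each library and 0 and 6 UMIs in Foxp3 T cells. Tigit, a receptor for CD155, was barely detected, with 8 and 14 UMIs in CD8 T, 3 and 2 in CD4 T, 5 and 8 in Foxp3 T and 0 in NK cells of both libraries. The intervals of these counts of 0 reach 7.75 and 6.6 CPM in those NK cells. Tox was at 243 and 169 CPM in CD8 T, 219 and 102 in Foxp3 T, 131 and 81.6 in CD4 T and 88.2 and 50.1 in NK cells, and had 2 or fewer UMIs in B cells, mononuclear phagocytes, cDC1 and plasmacytoid dendritic cells of each library. In plasmacytoid dendritic cells it had 0 UMIs, with intervals that reach 5.77 and 10.5 CPM. In B cells of the labelled knockout it had 0, with an interval that reaches 4.32 CPM. In the control library the intervals of CD8 T and Foxp3 T cells overlapped for Tox, and in the other they did not.

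**Figure D1:**
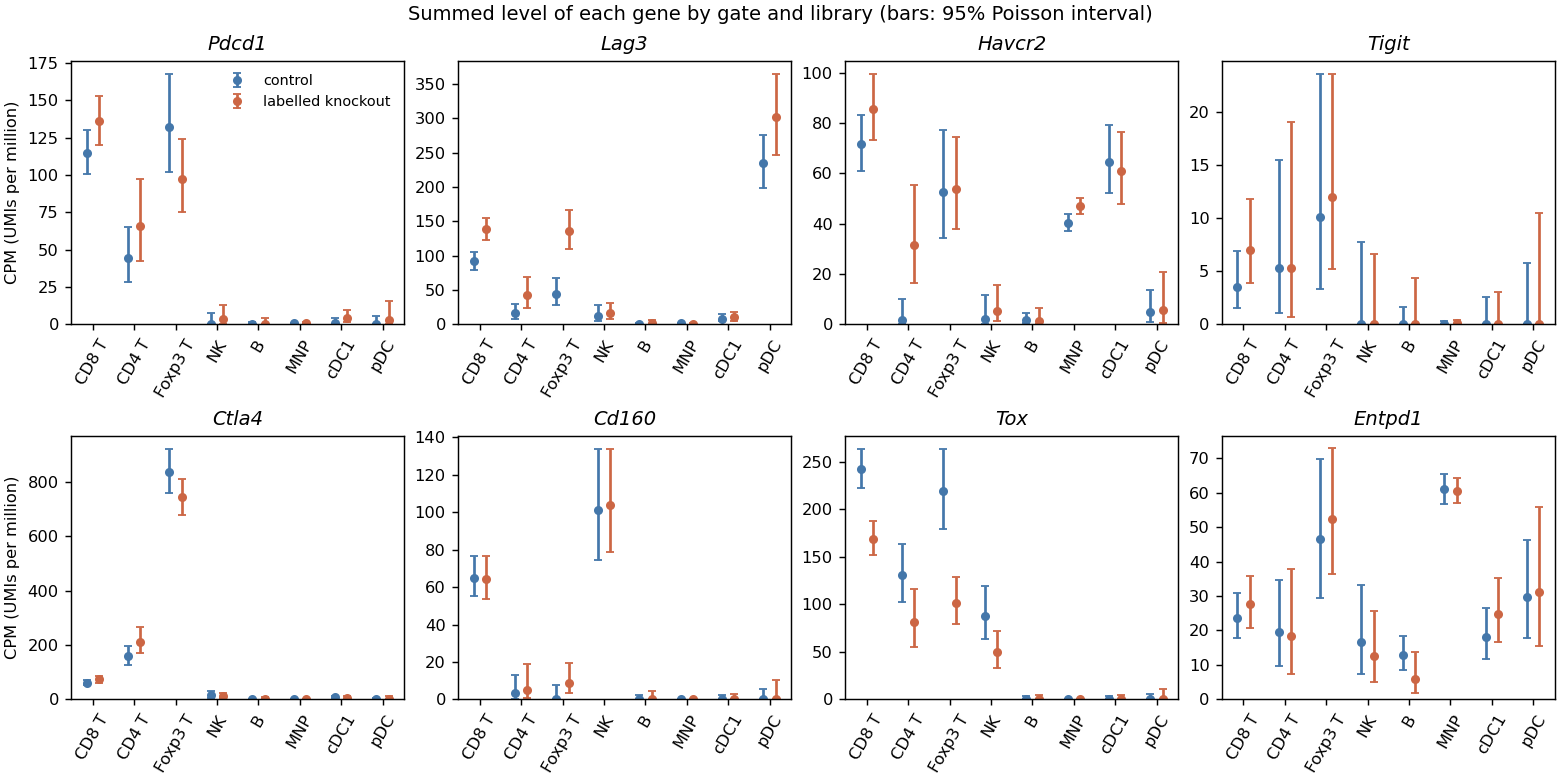
Summed level of each of the 8 genes in CPM (vertical axis, linear, starting at 0 and scaled per gene) in 8 gates (horizontal axis, MNP standing for mononuclear phagocyte) for the control library and the library labelled knockout. Points are gate sums and bars are 95% Poisson intervals; Ctla4 peaks in Foxp3 T cells at 838 and 744 CPM, Cd160 in NK cells at 101 and 104 CPM, and Lag3 in plasmacytoid dendritic cells at 235 and 302 CPM.

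Between the libraries, the genes of CD8 T cells did not all differ in 1 direction. Tox was lower in the library labelled knockout, at 169 against 243 CPM (337 and 557 UMIs), a ratio of 0.695 with a counting interval of 0.606 to 0.797. Lag3 was higher, at 138 against 91.7 CPM (275 and 210 UMIs), a ratio of 1.5 (1.25 to 1.81). The ratio's interval thus lay above 1 for 1 of the 8 genes and below 1 for 1, against 9.08% and 12.7% of the 9485 genes with at least 20 UMIs. Pdcd1 was at 136 against 115 CPM (ratio 1.18, 0.996 to 1.41), Havcr2 at 85.8 against 71.6 CPM (1.20, 0.962 to 1.49) and Ctla4 at 73.3 against 61.6 CPM (1.19, 0.938 to 1.51). Cd160 was level, with a ratio of 0.987 (0.773 to 1.26), and Entpd1 stood at 27.6 against 23.6 CPM. Cells holding UMIs of Flt3, Xcr1 or Cd209a were also left out, an alternative chosen after the data had been seen. Ctla4 then stood at 81.9 against 61.0 CPM, with an interval above 1 (1.34, 1.05 to 1.72). Lag3 (1.51, 1.25 to 1.83) and Tox (0.701, 0.607 to 0.81) changed little, and Entpd1 turned to 0.939 (0.601 to 1.45).

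On the log2 scale with 5 CPM added, none of the 8 genes reached a 1.5-fold difference in CD8 T cells in either direction, where 4.98% of 9485 genes were at least 1.5-fold higher and 4.13% at least 1.5-fold lower. The median of the 8 was 0.23, against -0.067 for all 9485 genes. Summed over the 8 genes, the level in CD8 T cells was 675 CPM in the control and 701 CPM in the labelled knockout, a log2 ratio of 0.05 (-0.051 to 0.16). Without Tox the log2 ratio of the summed 7 was 0.30 (0.174 to 0.427). Tox was left out after the data had been seen, and removing the gene with the lowest ratio raises the sum's ratio by construction. Cycling cells, those with Mki67 or Top2a UMIs, were 20.2% and 21.7% of the gate, and without them Tox had a log2 ratio of -0.94 and was the 1 gene at least 1.5-fold lower. Lag3 went from 0.56 to 0.29 (-0.079 to 0.69) and Pdcd1 from 0.23 to -0.015 (-0.409 to 0.375) when the cycling cells were left out. With no exclusion of cells by markers of other types, Lag3 was at 0.26 (0.03 to 0.519) and Ctla4 at -0.034. After each cell was thinned at random to 1000 UMIs, Tox had a UMI in 18.4% of 553 cells against 9.97% of 391, a difference of -8.47 percentage points (-12.8 to -3.95), and Lag3 in 5.97% against 9.21%, a difference of 3.24 points (-0.141 to 6.92). Without thinning these shares were 40.4% and 32.6% for Tox, and 18.7% of 555 cells and 99 of 396 cells for Lag3. Thinned, Havcr2 had a UMI in 2.89% against 5.63%, a difference of 2.73 points (0.16 to 5.69). Pdcd1, thinned, was found in 8.32% against 6.14%, or -2.18 points (-5.45 to 1.3), the reverse of the direction of its CPM ratio. For Ctla4, Cd160, Tigit and Entpd1 the interval of this difference included 0. B cells, as background, had UMIs of Tox in 0.15% and 0 of 419 cells and of Lag3 in 0.075% and 0.239%, at median depths of 1514 and 1792 UMIs.

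In Foxp3 T cells the same 2 genes had ratios whose counting intervals excluded 1, and these ratios lay further from 1 than in CD8 T cells. Lag3 was at 136 against 44.6 CPM (91 and 22 UMIs), a ratio of 3.06 (1.90 to 5.12), with UMIs in 39.8% of cells against 13.8%. Tox was at 102 against 219 CPM (68 and 108 UMIs), a ratio of 0.465 (0.338 to 0.636). Thinned to 1000 UMIs, however, Tox was found in 16.7% of cells in both libraries. Lag3, thinned, was found in 11 of 108 cells (10.2%, 5.2 to 17.5) of the library labelled knockout and 2 of 108 (1.85%, 0.225 to 6.53) of the control. These intervals overlap, and the difference was 8.33 percentage points (1.93 to 15.6). Lag3 and Tox were the 1 gene at least 1.5-fold higher and the 1 gene at least 1.5-fold lower of the 6 with at least 20 UMIs, against 11.2% and 14.9% of 6720 genes. The ratio's interval lay above 1 for Lag3 and below 1 for Tox, as it did for 9.35% and 11.5% of those genes. Ctla4 was at 744 against 838 CPM (ratio 0.887, 0.777 to 1.01), Pdcd1 at 97.3 against 132 CPM (0.739, 0.516 to 1.06), Havcr2 at 53.9 against 52.7 CPM and Entpd1 at 52.4 against 46.6 CPM.

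The Foxp3 T gate is also where dendritic cell RNA differed most, and the values were recomputed without the 3 and 24 cells that held UMIs of Flt3, Xcr1 or Cd209a, an alternative chosen after the data had been seen. Lag3 then stood at 198 against 47.1 CPM (ratio 4.20, 2.58 to 7.11). Tox stood at 155 against 223 CPM (0.694, 0.493 to 0.967), no longer 1.5-fold lower. Ctla4 turned from lower to higher, at 1050 against 853 CPM (1.23, 1.07 to 1.42), and Pdcd1 to 136 against 129 CPM (1.05, 0.710 to 1.56). Summed over the 8 genes, the log2 ratio in Foxp3 T cells was -0.15 (-0.304 to -0.004) with all cells and 0.32 (0.161 to 0.483) without these cells. The direction of the sum in this gate thus changed when these cells were left out.

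In CD4 T cells Lag3 was at 42.1 against 15.9 CPM, from 16 and 9 UMIs, a ratio of 2.64 (1.10 to 6.79), and 4 of the 16 UMIs came from 1 cell. Tox was at 81.6 against 131 CPM (31 and 74 UMIs; ratio 0.623, 0.396 to 0.960). Ctla4 was at 213 against 159 CPM (1.34, 0.979 to 1.83) and Pdcd1 at 65.8 against 44.2 CPM (1.49, 0.820 to 2.70). In the library labelled knockout, 14 of the 81 Ctla4 UMIs and 6 of the 25 Pdcd1 UMIs each came from 1 cell. Genes of regulatory T cells were also higher in this gate: Il2ra, Ikzf2, Tnfrsf4 and Tnfrsf18 summed to 1271 against 842 CPM, with UMIs in 61.3% against 47.8% of cells, and Tnfrsf4 alone stood at 353 against 147 CPM (2.4, 1.81 to 3.2). Mki67, a gene of cycling cells, was at 92.1 against 19.5 CPM (4.73, 2.35 to 10.3). Their part in the Ctla4 value was not tested. Of the 4 genes with at least 20 UMIs, 1 was at least 1.5-fold higher and 1 at least 1.5-fold lower, against 9.4% and 12.9% of 5990 genes. Intervals lay above 1 for 1 of the 4 and below 1 for 1, against 7.5% and 7.58% of the 5990. Havcr2 had 1 UMI in 224 cells against 12 UMIs in 106 cells, too few for this count. Without the cells holding UMIs of dendritic cell genes, Tox stood at 106 against 125 CPM (0.852, 0.531 to 1.33), Lag3 at 32.9 against 16.7 CPM (1.97, 0.692 to 5.59), Pdcd1 at 91.5 against 42.8 CPM (2.14, 1.16 to 3.94) and Ctla4 at 263 against 156 CPM (1.69, 1.21 to 2.34). That Pdcd1 value kept all 25 UMIs of the library labelled knockout, with 6 from 1 cell.

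NK cells had 2 of the 8 genes with at least 20 UMIs. Tox was at 50.1 against 88.2 CPM (28 and 42 UMIs), a ratio of 0.568 (0.339 to 0.938), and Cd160 at 104 against 101 CPM (1.03, 0.690 to 1.54). Tox was the 1 gene at least 1.5-fold lower and none was higher, in a gate where 17.6% of 6322 genes were at least 1.5-fold lower and 8.45% at least 1.5-fold higher. The interval lay below 1 for 1 of the 2 and above 1 for 0, against 12.4% and 7.53% of those genes. Tox had the lower level in the library labelled knockout in all 4 gates with all cells, each with an interval that excluded 1. That order did not hold in every split of NK cells. In Xist cells, those with Xist and no Y-linked UMIs, Tox was at 48.3 against 33.9 CPM (1.43, 0.431 to 7.42; 23 and 3 UMIs), and in Y-linked cells at 66.5 against 114 CPM (0.581, 0.113 to 1.87; 3 and 29 UMIs). In CD4 T cells the interval included 1 once cells with dendritic cell genes were left out, as given above. In T cells with no UMI of any subset gene, 455 and 352 cells, the Tox ratio was 0.879 (0.640 to 1.20). Differences between the gates were not tested. In the 5 gates beyond these 4, 16 of 40 gene and gate pairs reached 20 UMIs, and 4 of the 16 had an interval above 1. They were 3 of 6 in T cells with no subset gene, 1 of 4 in mononuclear phagocytes and 0 of the 6 in B cells, cDC1 and plasmacytoid dendritic cells. Over all genes, 7.33%, 16.8%, 6.13%, 6.83% and 4.35% had such an interval in T cells with no subset gene, mononuclear phagocytes, B cells, cDC1 and plasmacytoid dendritic cells.

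**Figure D2:**
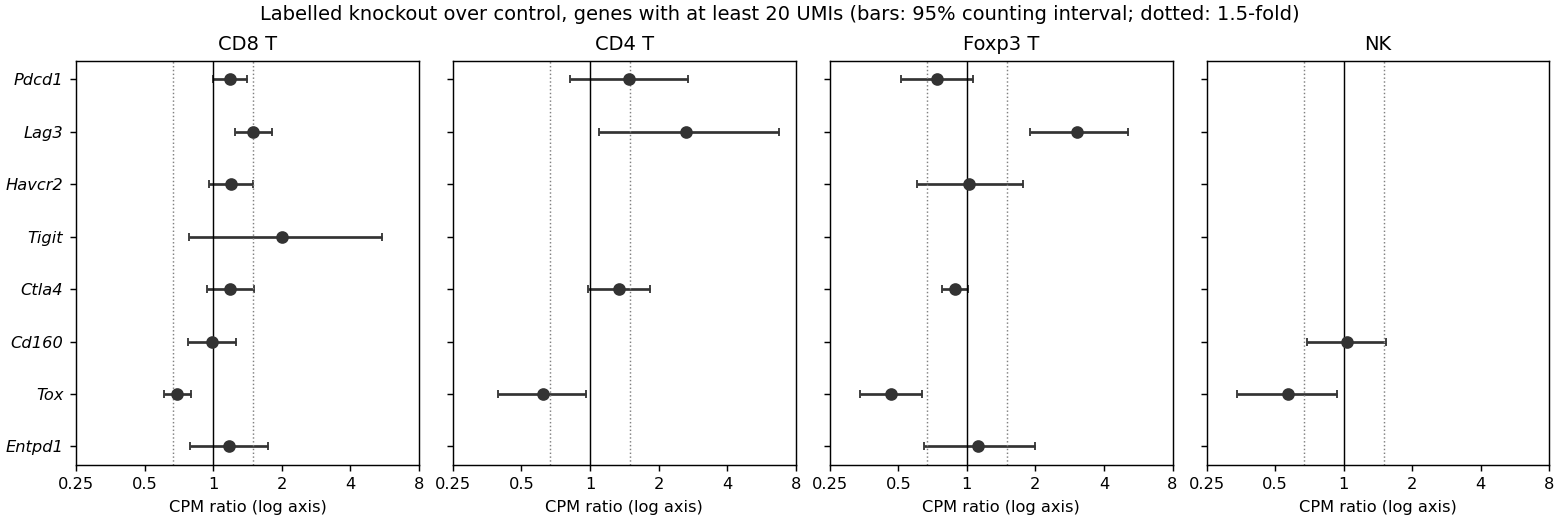
Ratio of each gene's level in the library labelled knockout to that in the control library (horizontal axis, log scale) in CD8 T, CD4 T, Foxp3 T and NK cells, restricted to genes whose UMIs in the pair of libraries reached 20. Points are ratios of CPM, bars 95% counting intervals and dotted lines 1.5-fold differences; Tox lies left of 1 in all 4 panels and Lag3 right of 1 in the 3 T cell panels.

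Because the libraries differ in sex, the CD8 T cells were divided by Xist and Y-linked UMIs, which gave 135 Xist and 229 Y-linked cells in the control library and 296 and 33 in the other. Lag3 stood at 48.3 CPM in Xist cells and 119 CPM in Y-linked cells of the control library, and at 165 and 40.5 CPM in those of the library labelled knockout. The ratio between libraries was 3.41 (2.18 to 5.61) in Xist cells and 0.340 (0.123 to 0.758) in Y-linked cells. Havcr2 had the same pattern, at 20.7 and 102 CPM in the control library and 94.0 and 47.2 CPM in the other, with ratios of 4.54 (2.32 to 10.1) and 0.463 (0.182 to 0.981). The direction for these 2 receptors thus differed between Xist and Y-linked cells, and the Y-linked cells of the library labelled knockout contributed 6 Lag3 and 7 Havcr2 UMIs.

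Pdcd1 was at 126 against 57.5 CPM in Xist cells (ratio 2.19, 1.44 to 3.48) and at 169 against 148 CPM in Y-linked cells (1.14, 0.721 to 1.74). Ctla4 was at 75.7 against 36.8 CPM in Xist cells (2.06, 1.21 to 3.73) and at 54.0 against 70.5 CPM in Y-linked cells (0.766, 0.320 to 1.58). Tox, at 153 against 193 CPM in Xist cells (0.791, 0.612 to 1.03) and 250 against 273 CPM in Y-linked cells (0.914, 0.633 to 1.29), was lower in both, with intervals that included 1. Within each library Tox was higher in the Y-linked cells. In the control library the Y-linked cells also had the higher Pdcd1, Lag3 and Havcr2, with intervals apart from those of the Xist cells. The 4 tumors of a pool are not labelled per cell, so sex and mouse cannot be told apart.

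Foxp3 T cells gave a Lag3 ratio of 2.42 (0.986 to 7.72) in Xist cells and 2.39 (0.752 to 6.61) in Y-linked cells, from 5 and 14 UMIs in the control library and 64 and 6 in the other. Tox in that gate had ratios of 0.447 (0.267 to 0.774) and 0.835 (0.364 to 1.69). Ctla4 differed in direction, at 808 against 622 CPM in Xist cells (1.30, 0.982 to 1.75) and 555 against 865 CPM in Y-linked cells (0.641, 0.421 to 0.943). In CD4 T cells the Tox ratio was 0.394 (0.202 to 0.745) in Xist cells and 1.75 (0.685 to 3.95) in Y-linked cells, the latter from 11 cells of the library labelled knockout. Pdcd1 in CD4 T cells also changed direction, at 35.7 against 66.0 CPM in Xist cells (0.541, 0.209 to 1.37; 10 and 12 UMIs) and 281 against 42.9 CPM in Y-linked cells (6.54, 2.39 to 18.2; 10 and 9 UMIs from 11 and 70 cells).

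**Figure D3:**
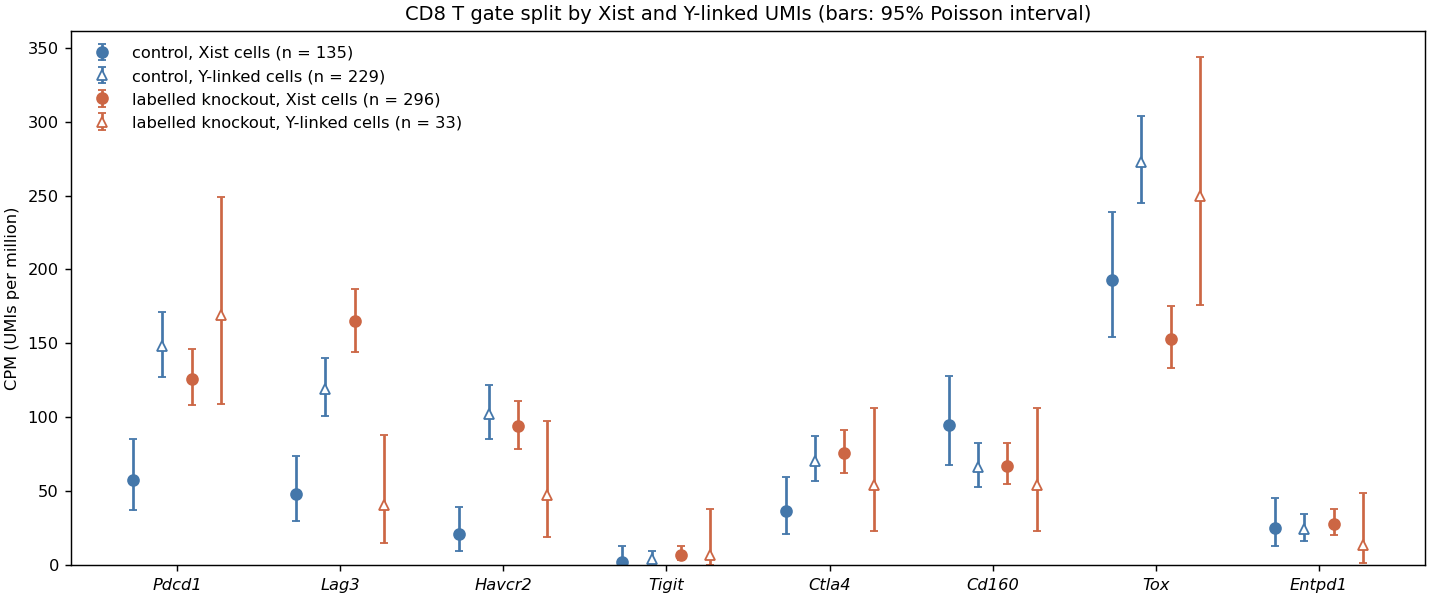
Level of the 8 genes in CD8 T cells (vertical axis, CPM, linear from 0) divided into cells with Xist UMIs and no Y-linked UMI (filled circles) and cells with Y-linked UMIs and no Xist (open triangles), for both libraries. Bars are 95% Poisson intervals; Lag3 is at 48.3 and 119 CPM in the Xist and Y-linked cells of the control library and at 165 and 40.5 CPM in the other.

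Before thinning, the receptors tended to be found together in the same CD8 T cells, and after thinning this was weak. With all UMIs of each cell, 64.4% of the 104 Lag3-positive cells of the control library held a Pdcd1 UMI, against 12.6% of the 451 cells without Lag3. Havcr2 was found in 39.5% of Pdcd1-positive cells and 3.48% of the others in the control library, and in 56.7% and 5.02% in the library labelled knockout. All 25 pairs of genes with enough cells in the control library and all 28 in the other had a phi coefficient (a correlation of presence and absence over cells) above 0, with medians of 0.252 and 0.306. Depth moved with these counts: cells with 4 or more of the genes had medians of 7554 and 7448 UMIs and cells with none 2609 and 3173, and its part was not tested. After thinning to 1000 UMIs the medians were 0.022 and 0.052, with 13 of 18 and 18 of 25 pairs above 0, values too weak in such sparse counts to order the pairs.

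After thinning, 2 or more of the 8 genes were found in 63 of 553 CD8 T cells (11.4%) of the control and 43 of 391 of the library labelled knockout, a difference of -0.395 percentage points (-4.39 to 3.83). Before thinning these shares were 33.7% and 35.4%. Cells with 4 or more genes before thinning were 13.0% and 19.7%, a difference of 6.72 points (1.99 to 11.6), and 0.362% and 0.256% after thinning. In Foxp3 T cells 26.9% and 30.6% held 2 or more after thinning (difference 3.70 points, -8.30 to 15.6), in CD4 T cells 4.98% and 6.73% (1.75 points, -3.30 to 8.62) and in NK cells 2.37% and 2.96% (0.596 points, -3.40 to 5.23). All 4 intervals include 0. B cells held 2 or more in 0 of 1299 and 0 of 409 thinned cells. They are not free of all 8 genes, since Entpd1 stood at 12.8 and 5.85 CPM in them. Before thinning, 4 or more genes were found in 13.8% and 31.5% of Foxp3 T cells, where the library labelled knockout was also the deeper one.

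**Figure D4:**
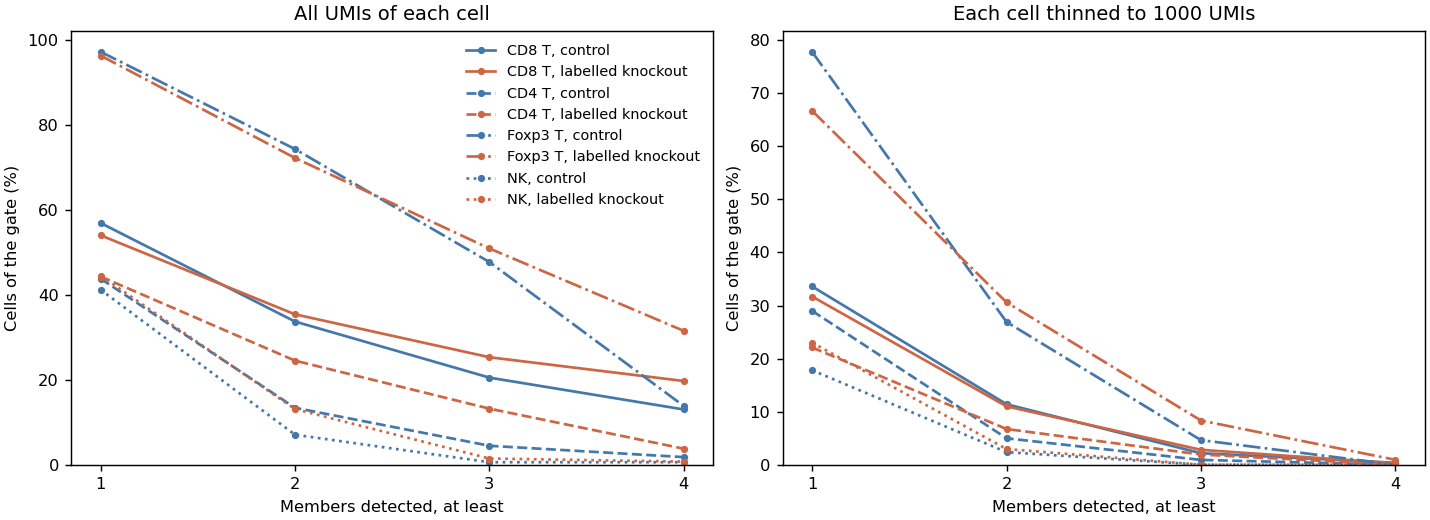
Share of the cells of each gate (vertical axis, percent) in which at least 1, 2, 3 or 4 of the 8 genes had a UMI (horizontal axis), with all UMIs on the left and after thinning each cell to 1000 UMIs on the right. Line styles stand for the 4 gates and colors for the libraries; at 2 or more genes the CD8 T shares are 33.7% and 35.4% before thinning and 11.4% of 553 and 43 of 391 cells after it.

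Tox level in CD8 T cells went with the number of the other 7 genes. Cells were classed by how many of the 7 had a UMI at a depth of 1000, and Tox was then measured with all UMIs. In the control library it stood at 184 CPM in 431 cells with none, 381 CPM in 89 cells with 1 and 493 CPM in 33 cells with 2 or more. In the library labelled knockout it stood at 115 CPM in 287 cells, 284 CPM in 73 cells and 317 CPM in 31 cells. Tox was lower in that library in each class, with intervals apart in the first class (164 to 205 and 97.7 to 134) and overlapping in the others. With all UMIs, 79.8% of Pdcd1-positive cells and 29.0% of Pdcd1-negative cells of the control library held Tox, and 73.2% and 19.4% in the other.

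Tcf7, which encodes TCF-1, a factor of naive and stem-like T cells, had the opposite order, at 386, 149 and 12.2 CPM in the control library and 283, 87.2 and 26.1 CPM in the other. Gzmb, the cytotoxic protease granzyme B, was at 175, 470 and 377 CPM in control cells with none, 1 and 2 or more receptors, and at 372, 574 and 1644 CPM in those of the library labelled knockout. Slamf6, a surface marker of progenitor-like exhausted cells, was at 137, 112 and 73.1 CPM in the same 3 classes of control cells. In the library labelled knockout it was at 79.1, 53.5 and 4.35 CPM. The class with 2 or more receptors gave 12 Slamf6 UMIs in the control library and 1 in the other.

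**Figure D5:**
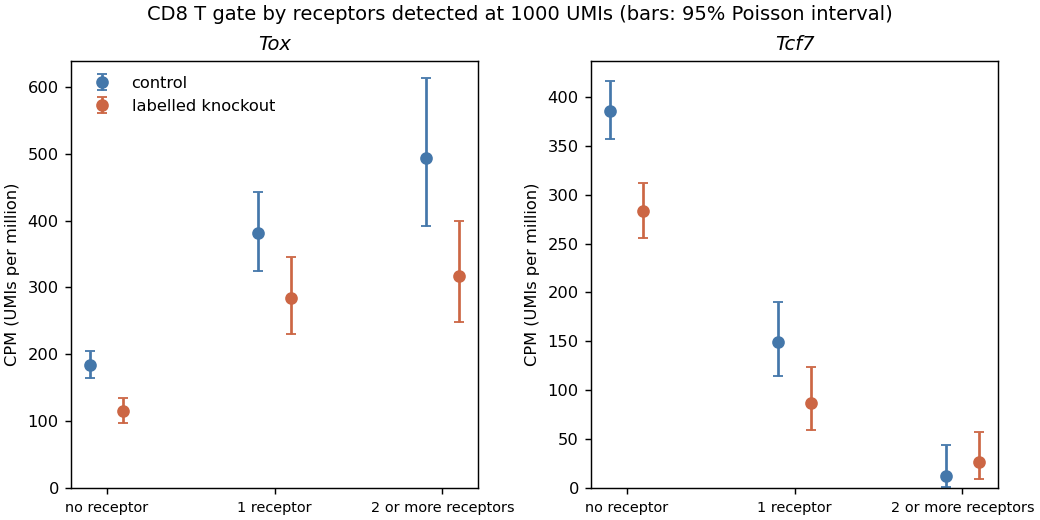
Level of Tox and of Tcf7 (vertical axes, CPM, linear from 0) in CD8 T cells classed by how many of the 7 receptor and ectoenzyme genes had a UMI at a depth of 1000 UMIs (horizontal axis), for both libraries. Bars are 95% Poisson intervals; from no receptor to 2 or more, Tox goes from 184 to 493 CPM in the control library and from 115 to 317 CPM in the other, while Tcf7 goes from 386 to 12.2 CPM and from 283 to 26.1 CPM.

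Genes outside the 8 that went with them were described within CD8 T cells by comparing the 63 and 43 cells holding 2 or more of the 8 with the 367 and 267 holding none, in each library on its own. A gene was counted only where it differed at least 1.5-fold in both libraries, which held for 4.22% of 5025 genes in the higher and 3.88% in the lower direction. Of 8 naive and progenitor genes with at least 50 UMIs in each library, 7 were lower and none was higher: S1pr1, Lef1, Klf2, Tcf7, Ccr7, Il7r and Satb1. S1pr1, a receptor for egress from tissue, was at 29.4 against 183 CPM in the control library and 15.2 against 137 CPM in the other. Il7r, the receptor for the survival cytokine IL-7, was at 62.5 against 417 CPM and 26.6 against 416 CPM.

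Of 10 effector genes, 7 were higher (Nkg7, Prf1, Ifng, Gzmb, Ccl5, Ccl3, Ccl4) and Gzma was lower. Ccl4, a chemokine of activated T cells, was at 3010 against 359 CPM and 3294 against 814 CPM. Ifng was at 298 against 88.3 CPM and 509 against 221 CPM. Of 12 transcription factors, 8 were higher and none lower: Nr4a2, Nr4a3, Rbpj, Bhlhe40, Prdm1, Id2, Batf and Nfatc1. Nr4a2, an orphan nuclear receptor induced by T cell receptor signals, was at 191 against 79.2 CPM and 307 against 129 CPM. Of 8 costimulatory receptors 4 were higher (Icos, Tnfrsf9, Tnfrsf4, Cd226), and of 6 further inhibitory receptors 2 were (Cd38, Cd96). Under another random draw of the thinning the same 7 naive and progenitor genes were lower, and 8 effector genes, 7 transcription factors and 4 costimulatory receptors were higher, not all the same genes: Ccl5, Nr4a3, Icos and Cd96 were not called, nor was Gzma. Of the 63 and 43 cells, 12 and 33 held Xist alone and 39 and 2 Y-linked UMIs alone, and the part of sex in these ratios was not tested.

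Leaving out the 8 genes themselves, the genes of the 5025 with the largest ratios in both libraries were Spp1, Ccl4, Cxcr6, Nrgn, S100a4, Ccl3, Osbpl3, St6galnac3, Nrp1 and Serpinb6a, and among the 10 lowest were Ifitm3, H2-Ab1, Ccr7, Cd74, Il6ra, Basp1, H2-Eb1, Tcf7 and 5730508B09Rik. Cxcr6, a chemokine receptor of tissue-resident T cells, was at 695 against 180 CPM and 664 against 183 CPM. H2-Ab1, H2-Eb1 and Cd74 belong to MHC class II presentation. Cd74 was at 69.9 CPM in cells with 2 or more of the genes and 894 CPM in cells with none in the control library. The part of RNA from other cells in these ratios was not tested. In the closest pairings by phi in thinned cells, Cxcr6 ranked first for Pdcd1 (0.19 and 0.178) and for Lag3 (0.177 and 0.232), and Gzmb for Havcr2 (0.192 and 0.195), over 553 and 391 cells that share a library and a depth. First for the other genes were Zbtb38 for Entpd1 (0.302 and 0.208), Dtd1 for Tigit (0.218 and 0.171) and S100a10 for Tox (0.208 and 0.17). Gak ranked first for Ctla4 (0.124 and 0.171) and Ormdl1 for Cd160 (0.132 and 0.163). Each was picked as the highest among the 5025 genes, and these are weak values in sparse counts.

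Between the libraries, the lists around the 8 genes in CD8 T cells are given against the same 4.98% higher and 4.13% lower. Of 11 effector genes, 5 were at least 1.5-fold higher and none 1.5-fold lower in the library labelled knockout. The 5 were Ccl3 (1277 against 453 CPM), Ccl4, Gzmb (556 against 246 CPM), Ifng (351 against 161 CPM) and Prf1. Gzma was lower, at 54.2 against 83.4 CPM (0.65, 0.508 to 0.827), just short of 1.5-fold on the log2 scale with 5 CPM added. Of 15 transcription factors Maf (75.8 against 24.0 CPM) and Nr4a2 (223 against 134 CPM) were higher and Tox2, a close relative of Tox, was lower (4.01 against 10.5 CPM, from 8 and 24 UMIs). Of 9 naive and progenitor genes only Slamf6 was 1.5-fold lower, at 65.7 against 127 CPM. The median log2 ratio of the 9 was -0.301, against -0.067 for all genes. Of 11 further inhibitory receptors tested, Klrc1 was higher and Btla lower, of 8 costimulatory receptors Tnfrsf9, which encodes 4-1BB, was higher (189 against 81.2 CPM), of 6 signalling genes none differed 1.5-fold, and of 5 cell cycle genes Mki67 was lower (184 against 284 CPM).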

How the data were processed

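UMI counts were deposited as 1 matrix per library; per the labels' protocols they came from 10x Genomics 3' v3 libraries, and the submitters' processing notes name Cell Ranger 3.0.1 and mm10. From these counts, a barcode was kept if it had 200 or more genes and no more than 10% of its UMIs from mitochondrial genes, and the highest Scrublet scores (0.8% per 1000 barcodes, scanpy 1.11.5) were removed as doublets. Gates used marker UMIs, and cells with 3 or more UMIs of markers of other cells were left out of the T and NK gates. Levels are gate sums scaled to CPM with exact 95% Poisson intervals, ratios have exact conditional intervals, shares Clopper-Pearson intervals and differences of shares Newcombe intervals. PCR duplicates are collapsed by UMIs, and intervals cover counting error only. Genes with at least 20 UMIs over both libraries were compared as log2 of CPM + 5, with 1.5-fold as the limit, and companion genes with at least 50 UMIs in each library. Cells were thinned to 1000 UMIs with a fixed seed, which left out 2 control and 5 labelled knockout CD8 T cells as too shallow. The fold rule, ratio interval and thinning were checked on simulated data. Named genes were the 8 genes, the fixed lists and the 10 highest and lowest companions; some listed genes, and an alternative and a list sum that used them, are not reported here. The 8 genes, lists and gates were chosen with earlier results of these data known. Alternatives covered filters, gates, exclusions, sex, cycling cells, free RNA, thinning, pseudocount and scaling.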

Additional observations from a re-analysis of the deposited data

Results flagged for a closer look

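In CD8 T cells, the ratio of each gene was also taken within Xist cells and within Y-linked cells. For Lag3 and Havcr2 the libraries differed in opposite directions. Lag3 in the library labelled knockout was 3.41 times its control level in Xist cells and 0.34 times in Y-linked cells. Havcr2 was 4.54 times its control level in Xist cells and 0.463 times in Y-linked cells. The difference between these ratios was not tested, since each library is 1 sample.

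Outside the CD8 T, CD4 T, Foxp3 T and NK gates, 16 of 40 gene and gate pairs had at least 20 UMIs over both libraries, and 4 of these 16 ratios had counting intervals above 1. In T cells with no UMI of a subset gene Lag3 stood at 15.9 against 5.45 CPM (ratio 2.91, 1.08 to 9.07), Ctla4 at 77.3 against 53.6 CPM (1.44, 1.01 to 2.06) and Cd160 at 91.2 against 60.9 CPM (1.5, 1.08 to 2.08). In mononuclear phagocytes Havcr2 stood at 47.0 against 40.4 CPM (1.16, 1.04 to 1.3). Intervals above 1 were found for 7.33% of 8159 genes in the former gate and 16.8% of 11790 genes in the latter.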

How the results depend on the processing

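Tox was lower in the library labelled knockout under all 18 alternatives in CD8 T cells (log2 ratio -0.944 to -0.127) and all 18 in Foxp3 T cells (-1.41 to -0.253), and Lag3 was higher under all 18 in Foxp3 T cells (1.17 at the lowest). Signs differed from those of all cells in some splits by Xist and Y-linked UMIs. With Y-linked cells alone Lag3 was at -1.45 in CD8 T and Tox at 0.78 in CD4 T cells. These rest on 6 Lag3 and 8 Tox UMIs of the library labelled knockout. With Xist cells alone Tox was at 0.456 in NK cells (3 control UMIs) and Pdcd1 at -0.803 in CD4 T cells. The ratio's interval included 1 for these Tox and Pdcd1 values, and sex and mouse cannot be told apart. The cause was not tested for any value here.

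The summed log2 ratio in CD8 T cells (0.054) was -0.144 with a mitochondrial limit of 5%, -0.138 without exclusion by markers of other cells, 0.581 in Xist cells, -0.348 in Y-linked cells, -0.233 without cycling cells and 0.301 without Tox. In CD4 T cells (0.284) it was 0.973 in Y-linked cells, 0.613 without Tox and 0.593 without cells holding Flt3, Xcr1 or Cd209a UMIs. In Foxp3 T cells (-0.154) it was above 0 without doublet removal (0.004), with exclusion at 1 UMI (0.019), in Xist cells (0.099), as a mean of single-cell CPM (0.119), and without cells holding the dendritic genes (0.322) or H2-Aa (0.461). It was -0.467 with the 5% limit and -0.447 without exclusion. In NK cells (-0.218) it was -0.769 in Y-linked cells.

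The difference in the share of cells with 2 or more of the genes was -5.08 points with the 5% limit and -11.0 in Y-linked cells for CD8 T. For CD4 T it was 12.5 in Y-linked cells, 9.92 at 2000 UMIs and 11.1 without thinning. For Foxp3 T (3.70 in the main setting) it moved both ways, to 18.1 in Y-linked cells and to -7.19 at 2000 UMIs. It was above 0 under 14 alternatives and below 0 under 2 in that gate. For NK it was -3.95 in Y-linked cells and 6.08 without thinning.

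Of the 8 genes, those at least 1.5-fold higher in CD8 T cells numbered 0, but 1 with a T gate of 1 UMI, a pseudocount of 1 or no dendritic genes, 2 as a mean of single-cell CPM or without H2-Aa cells, and 4 in Xist cells. Those lower numbered 0, but 3 in Y-linked cells and 1 with the 5% limit, a T gate of 4 UMIs, no exclusion, no cycling cells or a mean of single-cell CPM. In CD4 T cells the 1 higher became 2 without doublet removal, with the 5% limit, a T gate of 4 UMIs, no UMI filter, or no dendritic or H2-Aa cells, and 0 at 50 UMIs. The 1 lower became 2 in Xist cells, and 0 with no exclusion, exclusion at 1 UMI, Y-linked cells, no cycling cells, a mean of single-cell CPM, or no dendritic or H2-Aa cells. In Foxp3 T cells the 1 higher became 2 in Y-linked cells, with no UMI filter or without H2-Aa cells, and the 1 lower became 2 without exclusion and 0 without dendritic or H2-Aa cells. In NK cells the 0 higher became 1 with no UMI filter, and the 1 lower became 0 without cycling or H2-Aa cells or as a mean of single-cell CPM.

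The alternatives on dendritic genes, H2-Aa and Tox were chosen after seeing the data. No paired analysis was possible because each group is 1 library. Few UMIs limit what can be said of Tigit in all 4 gates and of Havcr2 and Pdcd1 in NK cells, and the part of depth was not tested.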
